A study of Bos taurus with 6 samples.

Results

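RAB proteins are small GTPases that mark the membrane compartments of the cell and direct vesicles between them. A RAB bound to GTP sits on a membrane and recruits effectors, such as tethers and motor adaptors, and after GTP hydrolysis it is extracted from the membrane by a GDP dissociation inhibitor. Exchange factors switch RABs on and GTPase-activating proteins switch them off. In skeletal muscle and fat, RABs are known for moving the glucose transporter GLUT4 to the surface, and RAB18 is found on lipid droplets.

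The RAB genes described here are those whose probe sets carried exactly 1 gene symbol in the platform annotation, made of RAB followed by a digit. There were 44 such genes of 9155 named on the array, with 56 probe sets of 24016. Of these genes 39 encode RAB GTPases, and the other 5 (RAB3GAP1, RAB3GAP2, RAB3IP, RAB11FIP2 and RAB11FIP5) encode regulators or effectors. Counts of RAB genes include these regulators and effectors, and the GTPases are also counted alone. Each gene was represented by its brightest probe set, the probe set with the highest mean log2 signal over all arrays, and its other probe sets are given beside it. A further 3 probe sets listed a RAB symbol together with another gene and were left out.

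The samples were longissimus dorsi, a long back muscle, of 3 Japanese Black and 3 Holstein steers, with 1 Affymetrix array per animal. Holstein is a dairy breed, and Japanese Black cattle are raised for beef with much fat inside the muscle. All 6 animals, described as male in the labels, had received energy-rich feed, so the comparison asks how the breeds differ under that feeding, and a response to the feed itself could not be measured. Ages are not used here. Pairs of animals are not stated in the labels, and numbers serve only to name the animals.

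The arrays had median signals of 48.5 to 54.7 intensity units, and precision throughout is limited by their number. Defining fibre genes were bright in every animal, with ACTA1, skeletal actin, between 13606 and 15099 units. Japanese Black 3 was brighter than the other arrays as a whole: its median deviation from the probe sets' own means was 0.10 on the log2 scale, against -0.03 to 0.01 in the other 5. The 3′ to 5′ signal ratio of the actin control probe sets was 1.11 to 1.14 in Japanese Black and 1.00319 to 1.07 in Holstein, so it separated the breeds. The same ratio of the gapd control probe sets overlapped, at 0.858 to 0.928 in Japanese Black and 0.796 to 0.884 in Holstein. The mean log2 signal of the hybridisation controls was 10.1 to 10.3 in Japanese Black and 10.3 to 10.8 in Holstein. The part of these technical differences in the values below was not tested. Because the tissue was analysed in bulk, fewer cells of a type and less RNA per cell cannot be told apart.

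Differences are Japanese Black minus Holstein in log2(signal + 16), a scale on which dim probe sets show too small a change. They were tested with limma across all 18012 probe sets left after the dimmest 25% were removed, with Benjamini-Hochberg adjusted p-values over all of them. Of the 44 RAB genes 39 passed this filter, 34 of them GTPases. RAB19, RAB25, RAB27B, RAB3B and RAB9B did not and have no test. No RAB gene passed an adjusted p of 0.05 in limma's test: the count was 0 higher and 0 lower, where 0.0111% and 0.00555% of all probe sets passed. The lowest adjusted p of a RAB gene was 0.125.

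At an unadjusted p under 0.05 there were 3 RAB genes higher in Japanese Black (RAB26, RAB40B and RAB12) and 4 lower (RAB7B, RAB11FIP5, RAB3GAP2 and RAB3C) among 39 tested. These are 7.69% and 10.3% of the RAB genes, where the background was 7.31% of all probe sets higher and 5.28% lower, and 5.84% and 5.42% of the brightest probe sets of the named genes. The filter used the mean over all arrays, with its cut at 16.4 units. RAB40B averaged 12.0 units in Holstein, and RAB7B and RAB3C averaged 12.8 and 14.7 in Japanese Black. These genes thus passed the filter through the breed where they were high. The count of RAB genes lower rested on values near the threshold: it was 2 after quantile normalization, after median centring and without Japanese Black 1, Japanese Black 2, Holstein 1 or Holstein 3. Among the 34 GTPases alone 3 were higher and 2 lower at this unadjusted p, or 8.82% and 5.88%. All animals of the breeds lay on separate sides for 5 RAB genes higher and 4 lower in Japanese Black, or 12.8% and 10.3%, where 11.0% and 8.84% of all probe sets, and 10.2% and 8.96% of the named genes, did so. Among the GTPases alone the breeds did not overlap for 4 genes higher and 2 lower, or 11.8% and 5.88%. The shares over all RAB genes without overlap are near the background. Over the 34 tested GTPase genes the median difference was 0.10, with 20 higher and 14 lower in Japanese Black, beside a median of -0.01 and 48.7% higher over the brightest probe sets of 8050 named genes. The GTPase median was 0.03 without Japanese Black 3 and 0.05 after quantile normalization.

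The precision sets what these counts can show. The median standard error of a RAB gene was 0.18. The 95% interval lay within 1 of 0 on the log2 scale for 35 of 39 RAB genes, and for 87.2% of all probe sets. The exceptions were RAB26, RAB40B, RAB7B and RAB31, whose interval was -0.08 to 1.01.

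**Figure D1:**
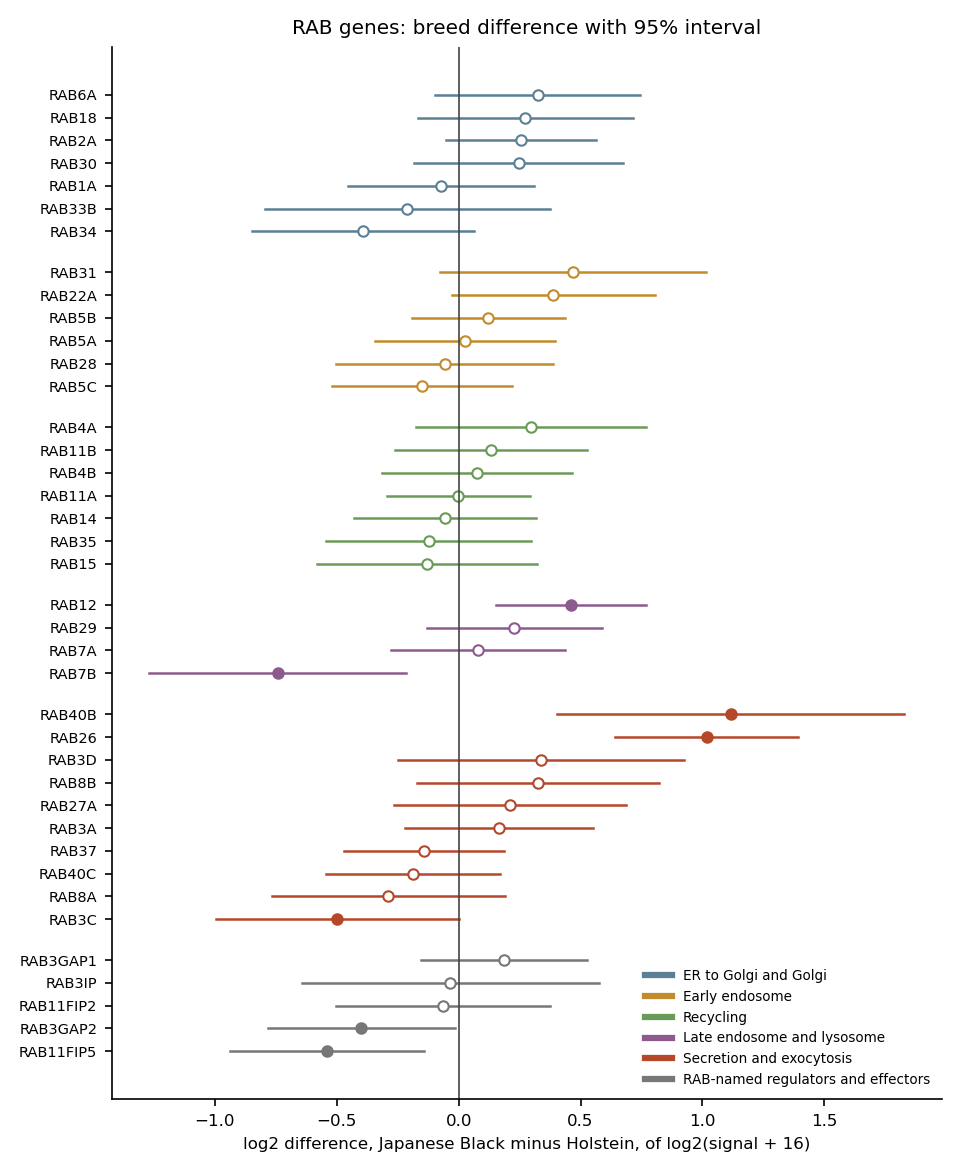
Log2 difference (Japanese Black minus Holstein, of log2(signal + 16)) of the 39 tested RAB genes, with limma's 95% interval as a line. Colours are the role lists, and filled points have an unadjusted p under 0.05, which 7 genes do; RAB40B and RAB26 lie farthest to the right and RAB7B farthest to the left.

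Among the RABs of secretion and exocytosis, RAB26 had the smallest p of the family. RAB26 acts in regulated secretion and in the delivery of synaptic vesicles to autophagy. Its probe set read 49.1, 54.5 and 61.9 units in the Japanese Black steers, against 18.8, 14.9 and 24.1 in the Holstein steers. Every Japanese Black animal was above every Holstein animal, with a gap of 24.99 units between the breeds. The log2 difference was 1.02 (SE 0.17, 95% interval 0.64 to 1.39), a 2.02-fold difference on this scale, with an unadjusted p of 0.000173 in limma and an adjusted p of 0.125. The signals are dim, and the offset sets the size: an offset of 1 gave 1.49, and one of 64 gave 0.52. Leaving out each animal in turn gave 0.93 to 1.11.

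RAB40B had the largest difference but a wide one. It belongs to the RAB40 branch, whose members carry a SOCS box and recruit a cullin ubiquitin ligase. It read 19.5, 67.6 and 56.1 units in the Japanese Black steers, against 16.2, 5.51 and 14.3 in the Holstein steers. Japanese Black 1 was close to the Holstein animals, and a gap of 3.33 units separated the breeds.

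The log2 difference of RAB40B was 1.12 (SE 0.31), with an unadjusted p of 0.00625 and an adjusted p of 0.313 in limma. Leaving out Japanese Black 1 gave 1.49, and leaving out Japanese Black 2 gave 0.88. With offsets of 1 and 64 it was 1.85 and 0.53. Its relative RAB40C had a difference of -0.19 (SE 0.16), with signals of 66.4 to 77.5 units in Japanese Black and 77.1 to 94.3 in Holstein, which overlapped.

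The RAB3 genes act in calcium-triggered exocytosis of neurons and endocrine cells. RAB3C read 10.9, 16.9 and 16.2 units in Japanese Black, against 26.4, 16.6 and 42.1 in Holstein. The breeds overlapped, since Holstein 2 was as low as the Japanese Black animals. The log2 difference was -0.50 (SE 0.22), with an unadjusted p of 0.0499 and an adjusted p of 0.397 in limma, and all these signals are dim. RAB3D, which is also found in exocrine glands and fat cells, had a difference of 0.34 (SE 0.26) and RAB3A one of 0.17 (SE 0.17), with overlapping breeds for both. The contrast between the RAB3 genes was not tested.

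RAB3B did not follow the breeds. It read 10.8, 5.57 and 45.9 units in the Japanese Black steers, against 4.48, 39.1 and 3.59 in the Holstein steers. Japanese Black 3 and Holstein 2 were high and the other 4 animals low, which gave RAB3B the largest spread within breeds of the 44 RAB genes (SD 0.82 on the log2 scale, against a median of 0.22 over the 44).

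The same animals were highest for the mean of the adipocyte markers, but not for each marker. Holstein 1 was above Holstein 2 for CD36 and PCK1, and Japanese Black 1 was above Holstein 2 for AGPAT2. The mean log2 deviation of the 8 adipocyte markers named on the array, of 10 listed, was -0.47, -0.31 and 1.16 in the Japanese Black steers, against 0.21, 0.74 and -1.33 in the Holstein steers. Their summed signal was 6774 to 19015 units in Japanese Black and 3579 to 15443 in Holstein, and none of the markers was at 0 in any animal. The part of fat cells in the RAB3B signal was not tested. RAB3B was picked out after its values were seen.

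**Figure D2:**
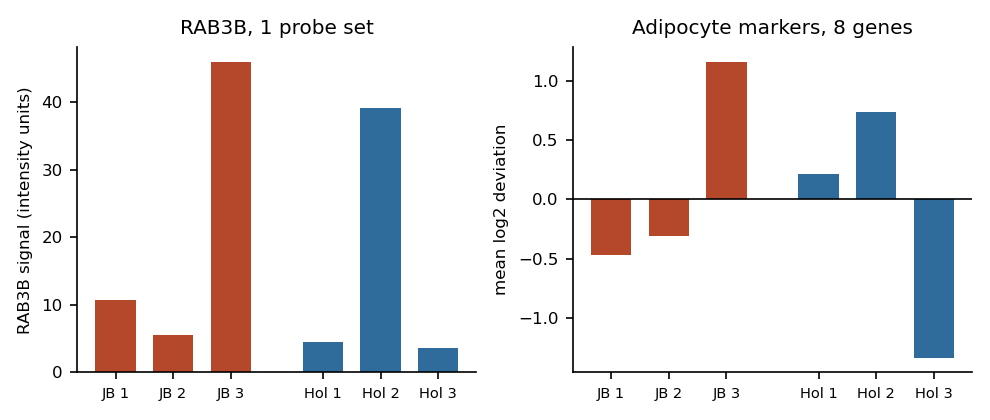
Left, the signal of RAB3B in intensity units in each steer; right, the mean log2 deviation of 8 adipocyte markers from their own means over the 6 arrays, for 3 Japanese Black (JB) and 3 Holstein (Hol) steers. JB 3 and Hol 2 are the highest animals in both panels, and Hol 3 is the lowest in both.

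RAB8A and RAB8B, which bring vesicles to the plasma membrane, pointed in opposite directions at their brightest probe sets. RAB8A acts in GLUT4 traffic in muscle cells. RAB8A read 69.0, 58.8 and 107 units in Japanese Black, against 93.4, 89.3 and 108 in Holstein, a log2 difference of -0.29 (SE 0.21). RAB8B read 271, 204 and 370 units in Japanese Black, against 233, 216 and 198 in Holstein, a difference of 0.33 (SE 0.22). The breeds overlapped for both genes, and the contrast between the genes was not tested. Japanese Black 3 was the highest Japanese Black animal for each, and without it the RAB8A difference was -0.50 (adjusted p 0.435 in limma). For RAB8B, Japanese Black 2 lay among the Holstein animals. The other probe set of RAB8A had a difference of -0.18 (SE 0.22), and that of RAB8B, far dimmer, 0.09 (SE 0.20).

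RAB27A, which carries melanosomes and the granules of cytotoxic cells, had a difference of 0.21 (SE 0.21) and overlapping breeds, with 36.8 to 62.5 units in Japanese Black and 27.3 to 45.6 in Holstein. Its other probe set had 0.12 (SE 0.16), with a correlation of -0.37 between the probe sets over the 6 arrays. RAB37, a RAB of mast cell granules, had a difference of -0.14 (SE 0.14). Its values did not overlap but lay within a narrow dim range, 12.4 to 17.7 units in Japanese Black and 18.0 to 19.9 in Holstein. Its Japanese Black mean, 15.6 units, lay below the filter cut of 16.4. In this list of 10 tested genes, 6 differences were positive and 4 negative, and their median was 0.19.

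Among the late endosome and lysosome RABs, RAB12 and RAB7B pointed in opposite directions. RAB12 directs the transferrin receptor to degradation and is a substrate of the kinase LRRK2. Its probe set was the brightest of the family, which is no order of RNA levels, since probe sets differ in how well they bind. It read 6088, 5983 and 6844 units in the Japanese Black steers, against 4264, 5460 and 4102 in the Holstein steers. All Japanese Black animals were above all Holstein animals, and Holstein 2 came nearest to them. The log2 difference was 0.46 (SE 0.14, 95% interval 0.15 to 0.77), a 1.38-fold difference, with an unadjusted p of 0.0082 and an adjusted p of 0.319 in limma. At this brightness the offset has little effect. Leaving out each animal in turn gave 0.38 to 0.59, with the highest value without Holstein 2.

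RAB7B, which moves cargo between late endosomes and the trans-Golgi network, was dim. It read 11.3, 5.28 and 21.7 units in Japanese Black, against 36.2, 22 and 35.6 in Holstein. The breeds did not overlap, but the gap between Japanese Black 3 and Holstein 2 was 0.28 units. The log2 difference was -0.74 (SE 0.23), with an unadjusted p of 0.0112 and an adjusted p of 0.321 in limma, and it was -1.39 and -0.31 with offsets of 1 and 64. RAB7B is best known from white blood cells in human and mouse. The mean log2 deviation of the 8 named leukocyte markers was -0.14, -0.24 and 0.24 in Japanese Black, against -0.17, 0.06 and 0.26 in Holstein, so the breeds overlapped for them. The part of such cells in the RAB7B signal was not tested.

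RAB7A, the RAB of fusion with lysosomes, read 249, 293 and 309 units in Japanese Black, against 266, 269 and 265 in Holstein. Its log2 difference was 0.08 with a 95% interval of -0.28 to 0.44, and its other probe set had a difference of -0.004. RAB29, which recruits LRRK2 to membranes, had a difference of 0.23 (SE 0.16) at a dim probe set with overlapping breeds. The fixed lists also named RAB32 and RAB38, which had no probe set that carried their symbol alone and are not analysed here.

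**Figure D3:**
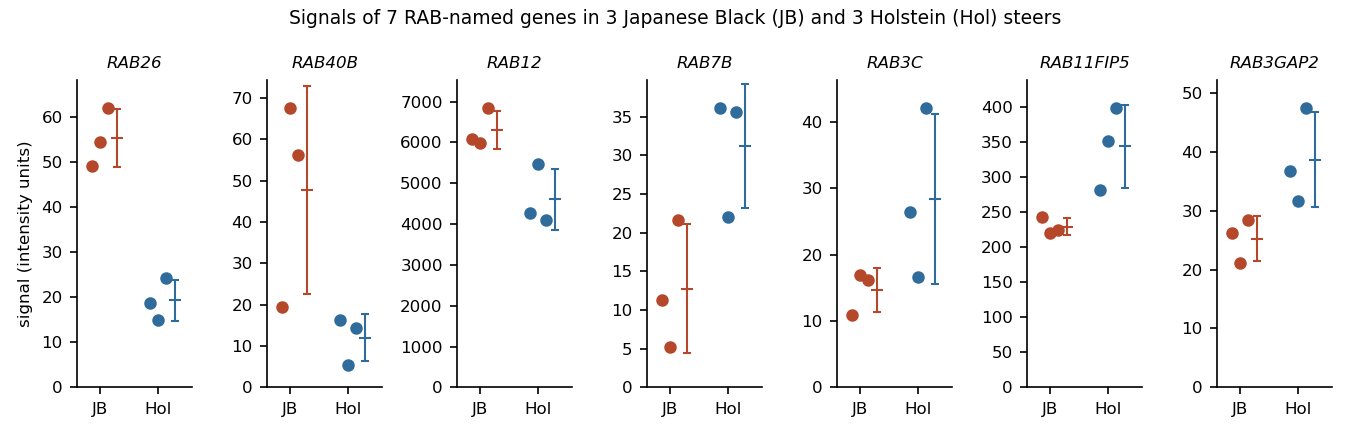
Signals in intensity units of the 7 RAB-named genes with an unadjusted p under 0.05, in 3 Japanese Black (JB, left) and 3 Holstein (Hol, right) steers per panel; points are animals, and the bar beside them is the mean with its SD. All panels start at 0 and have their own scale, and the breeds overlap for RAB3C only.

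Among the RABs of the Golgi and of transport from the endoplasmic reticulum, RAB2A was the tested gene whose breeds did not overlap. RAB2A, which acts between the Golgi, the endoplasmic reticulum and lysosomes, read 2475, 2742 and 2438 units in Japanese Black, against 2137, 2392 and 1892 in Holstein. All Japanese Black animals were above all Holstein animals, with a gap of 46.1 units. The log2 difference of 0.26 (SE 0.14) had an unadjusted p of 0.0916 and an adjusted p of 0.457 in limma.

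RAB6A, which drives transport within the Golgi and back to the endoplasmic reticulum, read 1258, 1358 and 1392 units in Japanese Black, against 1268, 1172 and 807 in Holstein. Holstein 3 was the low animal, and the breeds overlapped. The difference was 0.32 (SE 0.19), with 0.34 at the dimmer probe set, and it was 0.13 without Holstein 3. RAB18, found on lipid droplets and the endoplasmic reticulum, had the same low animal, with 520, 568 and 676 units in Japanese Black, against 547, 540 and 377 in Holstein. Its difference was 0.27 (SE 0.19) and 0.10 without Holstein 3.

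RAB1A, the RAB of transport from the endoplasmic reticulum to the Golgi, had a difference of -0.07 with a 95% interval of -0.46 to 0.31. RAB34, which acts in lysosome positioning and in forming cilia, had a difference of -0.39 (SE 0.20). It read 139, 112 and 159 units in Japanese Black, against 207, 145 and 203 in Holstein, so Holstein 2 lay among the Japanese Black animals. RAB33B, a Golgi RAB that also acts in autophagy, had 1 high animal, Holstein 1 at 559.88 units, against 262 to 372 in the other 5, and a difference of -0.21 (SE 0.26). Of the 7 tested genes of this list 4 were higher and 3 lower in Japanese Black, and RAB30 had the middle difference, 0.25.

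Among the early endosome RABs, the RAB5 genes lay close to 0. RAB5A, RAB5B and RAB5C, which control the fusion of early endosomes, had log2 differences of 0.03, 0.12 and -0.15, each with an SE of 0.14 to 0.16. RAB5A read 1058 to 1355 units in Japanese Black and 1125 to 1383 in Holstein. RAB5B read 1202 to 1399 units in Japanese Black and 1112 to 1273 in Holstein. The breeds overlapped for all 3 genes, and their intervals lay between -0.52 and 0.43.

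RAB22A and its relative RAB31, which act between endosomes and the trans-Golgi network, were higher on average in Japanese Black without passing. RAB22A read 204, 264 and 262 units in Japanese Black, against 215, 173 and 159 in Holstein, a log2 difference of 0.39 (SE 0.18, unadjusted p 0.0647 and adjusted p 0.423 in limma). Japanese Black 1 lay below Holstein 1. Its dim second probe set had a difference of 0.30, with a correlation of 0.18 between the probe sets over the 6 arrays. RAB31 read 396, 254 and 436 units in Japanese Black, against 195, 292 and 277 in Holstein, a difference of 0.47 (SE 0.24), and Japanese Black 2 was among the Holstein animals. Without Japanese Black 2 the difference was 0.69.

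Among the recycling RABs, RAB11A, which returns cargo from the recycling endosome to the surface, read 1503, 1536 and 1563 units in Japanese Black, against 1595, 1399 and 1620 in Holstein. Its log2 difference was -0.0007 with a 95% interval of -0.30 to 0.29, the narrowest interval of the 39 RAB genes. RAB11B had a difference of 0.13 (SE 0.17). RAB4A and RAB4B, which act in rapid recycling, had 0.30 (SE 0.21) and 0.08 (SE 0.17).

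RAB14, which acts between the Golgi and endosomes and is among the RABs tied to GLUT4, read 657, 696 and 810 units in Japanese Black, against 821, 795 and 639 in Holstein. The breeds overlapped, and the difference was -0.06 with a 95% interval of -0.43 to 0.32. RAB35, a RAB of recycling at the plasma membrane, had -0.12 (SE 0.19) at its brightest probe set and 0.26 (SE 0.20) at a far dimmer one. In the list of 7 tested recycling genes 3 differences were positive and 4 negative, and the median was -0.0007. RAB10 and RAB13, also of the GLUT4 list, had no probe set that carried their symbol alone and are not analysed here.

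**Figure D4:**
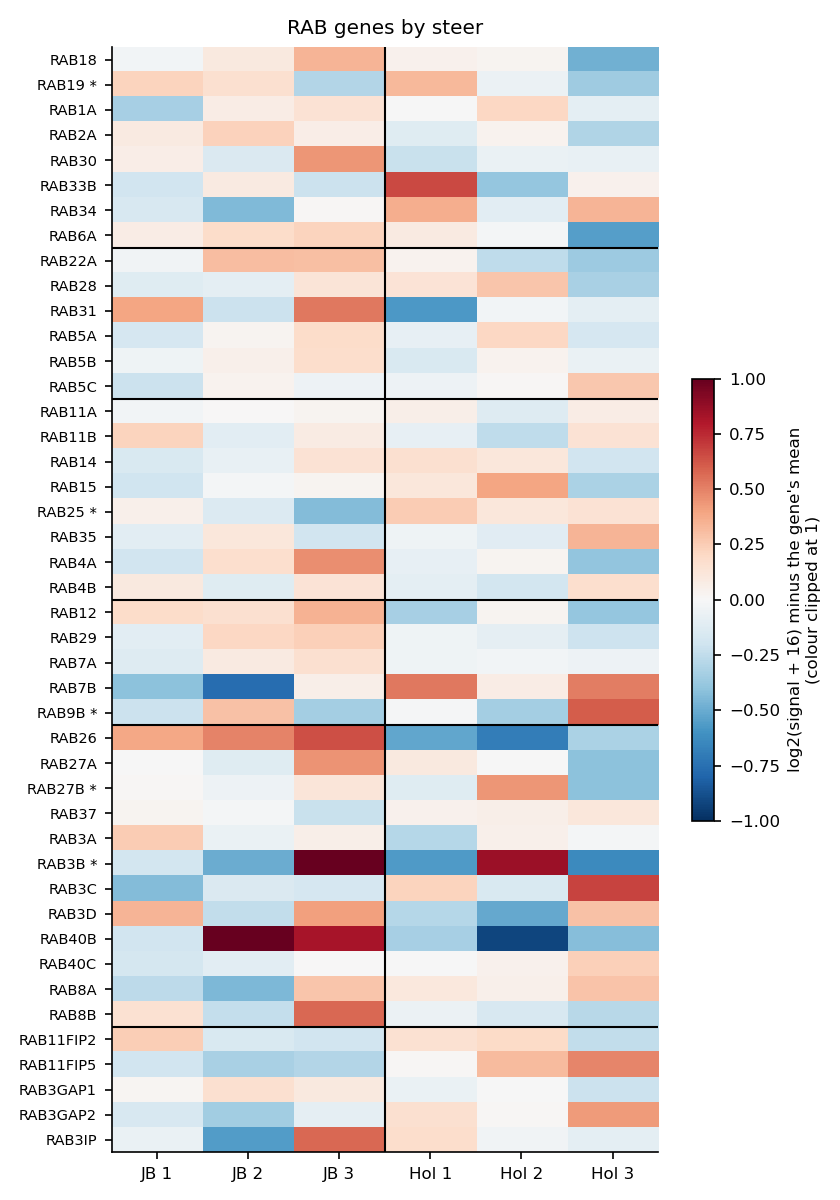
Deviation of log2(signal + 16) from each gene's mean over the 6 arrays, for all 44 RAB genes in 3 Japanese Black (JB) and 3 Holstein (Hol) steers, clipped at 1; lines separate, from the top, Golgi, early endosome, recycling, late endosome and lysosome, secretion, and RAB-named regulators, and a star marks genes without a test. RAB26 is uniformly high in JB and low in Hol, while RAB3B is high in JB 3 and Hol 2.

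Single arrays also stood out across the family. Of the 34 tested GTPase genes 13 had their highest value in Japanese Black 3, or 38.2%, beside 31.95% of all named genes. Holstein 3 had the lowest value of 12 of them, or 35.3%, beside 24.6%, and the highest of 8, or 23.5%, beside 26.9%. Both arrays also had the lowest array weights in limma, 0.56 and 0.51, against 1.24 to 1.64 in the others. Holstein 3 had 372 probe sets at 0, against 247 to 319 in the others. With 1 array per animal, the animal and its array cannot be told apart. The median deviation of the RAB GTPase genes was -0.07, -0.01 and 0.15 in the Japanese Black steers, against -0.04, -0.01 and -0.08 in the Holstein steers. Over all named genes it was -0.06, -0.03 and 0.10 in Japanese Black, against -0.004, 0.01 and 0.03 in Holstein.

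The 5 RAB-named regulators and effectors had 1 gene higher and 4 lower in Japanese Black. RAB11FIP5, an effector that links RAB11 to recycling endosomes, read 242, 220 and 224 units in Japanese Black, against 281, 351 and 398 in Holstein. The breeds did not overlap, and the Japanese Black animals lay closer together than the Holstein animals. The log2 difference was -0.54 (SE 0.18), with an unadjusted p of 0.0133 and an adjusted p of 0.330 in limma. Its other probe sets did not share it: the differences were -0.06 at a probe set nearly as bright and -0.08 at a dimmer one, and the mean of its probe sets gave -0.23.

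RAB3GAP1 and RAB3GAP2 are the catalytic and the non-catalytic subunit of a complex that switches RAB3 off and RAB18 on. RAB3GAP1 read 471, 519 and 497 units in Japanese Black, against 442, 463 and 397 in Holstein, a difference of 0.19 (SE 0.15) that did not pass although the breeds did not overlap. RAB3GAP2 read 26.2, 21.1 and 28.5 units in Japanese Black, against 36.8, 31.7 and 47.4 in Holstein. Its log2 difference was -0.40 (SE 0.17), with an unadjusted p of 0.0426 and an adjusted p of 0.389 in limma. The subunits thus pointed in opposite directions at a bright and a dim probe set, and the contrast between them was not tested.

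For RAB11FIP2, another RAB11 effector, the probe sets disagreed. The brighter had a difference of -0.06 (SE 0.19) with overlapping breeds. The other, of similar brightness, read 58.6, 41.9 and 40.2 units in Japanese Black, against 25.9, 25.9 and 29.7 in Holstein, a difference of 0.53 (SE 0.17) with non-overlapping breeds and an adjusted p of 0.321 in limma. RAB3IP, an exchange factor for RAB8, had a difference of -0.03 with a 95% interval of -0.64 to 0.57.

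Of the 44 genes 11 had more than 1 probe set. For 10 tested other probe sets of these genes, 7 had the same sign as the brightest. RAB6A agreed most closely in value, and RAB11FIP2, RAB35 and RAB7A differed in sign.

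**Figure D5:**
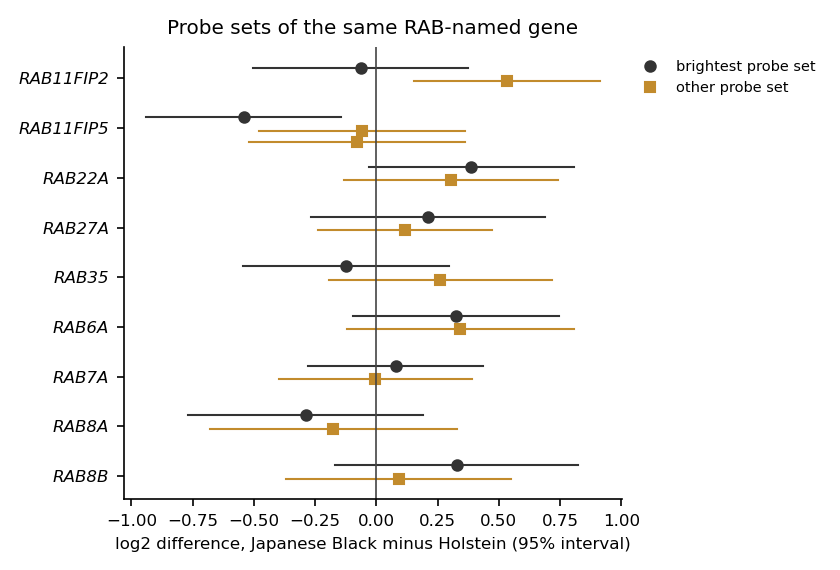
Log2 difference (Japanese Black minus Holstein) with limma's 95% interval for the 9 RAB-named genes with more than 1 tested probe set; circles are the brightest probe set and squares the others. The points lie closer together for RAB6A, RAB22A, RAB7A, RAB27A and RAB8A and farther apart for RAB11FIP2, RAB11FIP5, RAB35 and RAB8B.

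Further genes load, switch and read RABs. Of 74 regulator genes named on the array, the 5 above included, 70 were tested. Their differences were positive for 45 and negative for 25, and the median was 0.096. Of the brightest probe sets of named genes 48.7% were higher. Over all probe sets 51.0% were higher, 46.3% without the bright array Japanese Black 3, and 54.3% with the dimmest 50% left out. The share of regulators higher was not counted in either of these settings, and the background was not matched to the regulators by brightness. The breeds did not overlap for 9 regulators higher and 3 lower, or 12.9% and 4.29%, beside 11.0% and 8.84% of all probe sets. At an unadjusted p under 0.05 there were 2 higher (RILPL1 and TBC1D23) and 2 lower (RAB11FIP5 and RAB3GAP2), or 2.86% in each direction beside the background of 7.31% and 5.28% of all probe sets, and 0 passed the adjusted threshold in limma.

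Effectors had 17 of 23 tested genes higher in Japanese Black, beside 48.7% of named genes, and a median of 0.10. RILPL1, which binds RAB8 and its relatives once LRRK2 has phosphorylated them, had the smallest p. It read 2601, 2582 and 2589 units in Japanese Black, against 1791, 2077 and 1867 in Holstein. The Japanese Black animals were nearly identical and all above the Holstein animals. The log2 difference was 0.44 (SE 0.12), with an unadjusted p of 0.00598 and an adjusted p of 0.310 in limma. RABEP1, rabaptin-5, which binds RAB5, had a difference of 0.36 (SE 0.17), and BICD2, a dynein adaptor that binds RAB6, one of 0.30 (SE 0.16), with an adjusted p of 0.414 and 0.453 in limma.

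Genes of the TBC family were listed as GTPase-activating proteins by family, not by a known activity of each. Of 18 tested, 12 were higher in Japanese Black, beside 48.7% of named genes, and the median was 0.07. TBC1D23, a family member that tethers endosome-derived vesicles at the Golgi, read 664, 696 and 711 units in Japanese Black, against 546, 569 and 378 in Holstein. Holstein 3 was the low animal, and the difference of 0.48 (SE 0.18, unadjusted p 0.0288 and adjusted p 0.363 in limma) was 0.30 without it. TBC1D7, a subunit of the TSC complex, had 0.46 (SE 0.21), and TBC1D31, a protein of centriolar satellites, had 0.41 (SE 0.20). TBC1D4, also called AS160, which holds back GLUT4 vesicles until insulin signals, read 823, 815 and 998 units in Japanese Black, against 1012, 606 and 618 in Holstein. Holstein 1 was its highest animal, the breeds overlapped and the difference was 0.27 (SE 0.22). TBC1D4 was chosen for this role, outside the rule for named genes.

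Exchange factors had 13 of 20 tested genes higher in Japanese Black, beside 48.7% of named genes, and a median of 0.10. Their smallest p belonged to DENND10, with a difference of 0.34 (SE 0.18), TRAPPC9, with -0.26 (SE 0.16), and TRAPPC6B, with 0.30 (SE 0.21), the last 2 being subunits of TRAPP complexes. TRAPPC9 read 116, 109 and 114 units in Japanese Black, against 129, 128 and 159 in Holstein, without overlap. The 4 tested genes that prenylate, escort or extract RABs were GDI2, PRAF2, RABAC1 and RABGGTA, with 2 higher and 2 lower in Japanese Black. GDI2, a GDP dissociation inhibitor, had a difference of 0.23 (SE 0.14), and RABGGTA, the alpha subunit of the enzyme that attaches the lipid anchor, one of -0.18 (SE 0.17).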

How the data were processed

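Total RNA was treated with DNase and converted to biotin-labelled cRNA for hybridisation, per the labels' protocols. The authors deposited a table of linear intensity values, with 24128 probe sets as rows and the 6 arrays as columns. The software named in the submitters' processing notes is GCOS 1.1.1 and Affymetrix Expression Console 1.1. How probes were summarised and scaled, and any genome build, is not given in those sources. These values entered the fit as they were, and no detection calls were used here.

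The 112 control probe sets were left out, an offset of 16 was added before log2, and the dimmest 25% of probe sets by mean over all arrays were removed. The breed contrast was fitted in R 4.3.3 with limma 3.58.1 (lmFit, eBayes with an intensity trend, 4.91 prior degrees of freedom), two-sided. The p-values of all 18012 probe sets were adjusted together by Benjamini-Hochberg, at a threshold of 0.05. The series design names a paired comparison, but the labels give no pairs, so the fit was unpaired. Nothing says how the animals were sampled beyond 1 array each. The p-values set each breed difference against the spread of these animals within breeds, with variances moderated over all probe sets.

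Symbols came from the platform annotation. In RefSeq's gene table (ARS-UCD2.0) all 44 RAB genes were found by identifier under the same symbol. No coordinates or sequences are given. Genes were named by a rule: up to 8 per direction with an unadjusted p under 0.05 and no overlap, the 5 brightest GTPases, up to 3 of smallest p per role list, and fixed genes of GLUT4, lipid droplet and melanosome traffic, with RAB26. The other genes named here were chosen outside it. The members, role lists and rule were chosen with earlier results of these data known.

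The breed contrast was also tested on simulated data with 18012 independently drawn probe sets. The limma step recovered 0.625% of true log2 changes of 0.5, 43.4% of changes of 1 and 91.4% of changes of 2. Over the runs these were 320, 318 and 362 changed probe sets beside 89060 unchanged ones, of which 0.0225% were called. Noise was normally distributed with each probe set's own spread. Recovery depends on the share changed, which is not known for the real contrast. Alternatives were offsets, filters, scaling, variance models, array weights, leaving out each animal, and other ways to represent a gene. Plots were made in Python 3.11.15 with matplotlib 3.10.9.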

Additional observations from a re-analysis of the deposited data

How the results depend on the processing

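Under each of the 17 alternatives 0 RAB genes passed the adjusted threshold of 0.05 in limma, and of 620 values for 37 named genes 607 kept their sign; the lowest adjusted p was 0.0716. The GTPase median stayed positive, between 0.03 and 0.14. With the dimmest 50% of probe sets left out, 1 RAB gene was higher and 1 lower in Japanese Black at an unadjusted p under 0.05, 3 were higher and 1 lower without overlap, and 1 regulator was lower, because fewer genes were tested. The count of RAB genes lower at an unadjusted p under 0.05 was 2 after quantile normalization, after median centring, without moderated variances and with the mean of a gene's probe sets. Regulators higher numbered 4 after quantile normalization, 5 after median centring and 1 without moderated variances, and regulators lower numbered 1 after quantile normalization and 1 after median centring; the cause was not tested. Leaving out each animal in turn gave 3 to 5 RAB genes higher and 2 to 5 lower at an unadjusted p under 0.05, 5 to 12 higher and 4 to 7 lower without overlap, and 1 to 4 regulators higher and 1 to 2 lower. With fewer animals the share of all probe sets without overlap rose too. The 12 higher came without Japanese Black 1, where that share was 18.2%, and 10 without Japanese Black 2, where it was 16.2%. The 7 lower came without Japanese Black 3 or Holstein 2, where it was 18.1% and 15.7%. The sign changed for 6 genes with differences near 0. RAB11A was 0.015 after median centring and 0.011 with array weights, and leaving out each animal in turn gave -0.067 to 0.038. The same leave-one-out ranges were -0.17 to 0.010 for RAB14, -0.16 to 0.074 for RAB1A and -0.21 to 0.017 for RAB35. With the mean of a gene's probe sets RAB35 was 0.069 and RABAC1 0.019, and RAB7A was -0.019 after quantile normalization. No paired analysis was possible because pairs of animals are not stated in the labels. Several of the RAB genes with the smallest p (RAB26, RAB40B, RAB7B, RAB3C and RAB3GAP2) are dim, and signal over background limits how well their size is known.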
